A study of Mus musculus with 36 samples.

Results

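The genes described here are 10 members of the FGF and ERK signalling pathway: the ligands Fgf2, Fgf4 and Fgf5, the receptors Fgfr1 and Fgfr2, the feedback inhibitors Spry2, Spry4 and Dusp6, and the transcription factors Etv4 and Etv5. They were chosen by name, 10 of 22367 protein-coding gene records on the assembled mouse chromosomes, and the peaks assigned to each were those with a midpoint in the gene body or within 50 kb of it (mm9, GENCODE vM1 annotation). The question was where the chromatin remodelling complex NuRD was found around these genes in embryonic stem cells (ESCs) and in the neural progenitor cells (NPCs) made from them. FGF ligands bind FGF receptors, which are receptor tyrosine kinases, and signal through RAS and MEK to the kinase ERK. ERK signalling induces its own inhibitors, among them Sprouty proteins and the ERK phosphatase DUSP6, and the ETS-family factors ETV4 and ETV5. In ESCs autocrine FGF4 drives ERK activity that prepares cells to leave the pluripotent state, whereas NPCs depend on FGF2 to keep dividing.

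Protein binding was measured by chromatin immunoprecipitation followed by sequencing (ChIP-seq). Peak lists of 9 samples were analysed, out of 36 samples in the series. Wild-type R1 ESCs, grown with serum, LIF and the 2i inhibitors, gave 2 lists each for MBD3 and CHD4, the NuRD subunit that holds the complex together and its nucleosome remodelling ATPase, and 2 lists for SIN3A, the scaffold of another histone deacetylase complex, 1 made with added spike-in chromatin and 1 without it. NPCs derived from wild-type R1 ESCs gave 1 list for MBD3 and 1 for CHD4. ESCs carrying GFP-tagged ZFP296, a zinc finger protein, gave 1 list with a GFP antibody. That sample is labelled as R1 cells with a ZFP296 BAC, whereas the methods of the study describe a tagged construct in KH2 ESCs, and in either case the ZFP296 peaks come from a line other than the wild-type cells of the MBD3, CHD4 and SIN3A lists. The 2i inhibitors named in the methods of the study are PD0325901, which blocks MEK, and CHIR99021, which blocks GSK3, so that the ESCs were grown with the pathway inhibited at MEK, while the NPC medium contained FGF2 and EGF. Cell type and growth medium therefore cannot be told apart in any comparison below. All peak names of the second ESC CHD4 list refer to a Zfp219 BAC line although the sample is labelled wild-type, so the counts of members and regions that rest on it are also given without it. No expression was analysed here, and cell identity was not checked against markers.

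The lists differed in length, from 2304 peaks for MBD3 in NPCs to 29974 for CHD4 in ESC replicate 2. ESC MBD3 held 2344 and 7551 peaks, ESC CHD4 held 11712 and 29974, and NPC CHD4 held 20234. SIN3A held 16170 peaks without and 11422 with spike-in, and ZFP296 held 3102. Each peak carries the value its caller deposited, the −log10 of a p or q value, referred to as its deposited value. Peak names of the 7 MBD3, CHD4 and ZFP296 lists refer to a read number of 17000000, to which reads were set in those lists, and SIN3A peak names give none. The files hold no reads per peak, so no interval could be given for a count of peaks. With 2 ESC lists and 1 NPC list per factor no test of the difference was made. Instead, a gene was counted as having more or fewer peaks in NPCs when its NPC count lay above or below both ESC counts. The share of all protein-coding genes that met the same rule is given beside each count of the main setting. For the alternative settings this share was not computed.

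The windows of the 10 genes held 21 and 38 MBD3 peaks in the ESC lists and 4 in NPCs, and 40 and 89 CHD4 peaks in the ESC lists and 32 in NPCs. The SIN3A lists placed 41 and 29 peaks there and the ZFP296 list 11. Per gene, the 10 averaged 2.1 and 3.8 MBD3 peaks in ESCs, against 0.24 and 0.657 over all coding genes, and 0.4 in NPCs, against 0.211. For CHD4 the averages were 4 and 8.9 in ESCs, against 1.34 and 3.33 over all coding genes, and 3.2 in NPCs, against 1.76. The median coding gene had no MBD3 peak in any of the lists, whereas the median member had 1 and 3 in ESCs and 0 in NPCs.

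**Figure D1:**
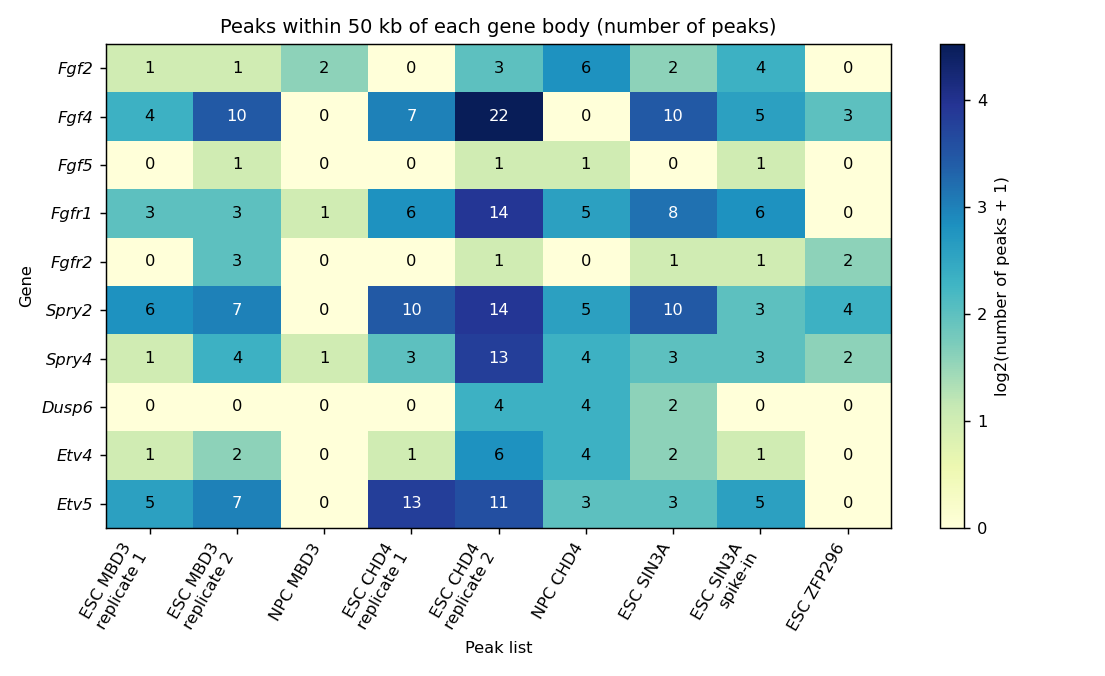
Number of peaks within 50 kb of the body of each of the 10 genes (rows) in each of the 9 lists (columns), with the colour showing log2 of the number plus 1. Fgf4, Spry2 and Etv5 hold the most ESC MBD3 peaks and none in NPCs, and Dusp6 holds no MBD3 peak in any list.

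An MBD3 site called in both ESC lists, meaning a peak of the list with fewer peaks that shared 1 bp or more with a peak of the other replicate, lay in the window of 7 of the 10 genes, against 10.1% of all coding genes. Spry2 and Etv5 had 5 such sites each, Fgf4 had 3, Fgfr1 had 2, and Fgf2, Spry4 and Etv4 had 1 each. In NPCs an MBD3 peak was called near 3 members, Fgf2, Fgfr1 and Spry4, against 15.7% of all coding genes. CHD4 sites called in both ESC lists lay near 5 members, against 36.8%, with 10 at Etv5, 8 at Spry2, 5 at Fgf4 and 3 each at Fgfr1 and Spry4. Without ESC replicate 1 a CHD4 peak was counted near all 10 members, against 67.7% of all coding genes, and without ESC replicate 2 near 6, against 43%. A CHD4 peak in NPCs lay near 8 members, against 57.9% of all coding genes, the exceptions being Fgf4 and Fgfr2. A SIN3A site of both preparations lay near 8 members, against 53.5%, and a ZFP296 peak near 4, against 21.9%.

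Compared over cell types, 5 members had fewer MBD3 peaks in NPCs than in each ESC list (Fgf4, Fgfr1, Spry2, Etv4 and Etv5), against 10.3% of all coding genes, and only Fgf2 had more, against 7.94%. For CHD4, 4 members had fewer peaks in NPCs (Fgf4, Fgfr1, Spry2 and Etv5), against 20.6%, and Fgf2 again had more, against 19.9%. Without ESC replicate 1 the members with fewer peaks numbered 8 for MBD3 and 7 for CHD4. Without the ESC CHD4 list named for the Zfp219 BAC, the members with more CHD4 peaks in NPCs numbered 5, and those with fewer were again 4. When every list was cut to its 2304 highest peaks, 3 members had fewer MBD3 peaks in NPCs, and 0 had more CHD4 peaks. The shares of all coding genes under these altered settings were not computed. Leaving out an ESC list loosens the rule, so that the numbers with more or fewer peaks can only stay or rise, for members and other genes alike. The call of Fgf4 for both factors, those of Spry2 and Etv5 for MBD3 and that of Fgf2 for MBD3 held in all 10 alternative settings in which they were computed. Some of these settings could not have removed them by construction: leaving out either ESC replicate, and the whole Fgfr2 record, which alters the Fgfr2 window alone. Counts per 10000 peaks could not either. An NPC count of 0 stays 0, and for Fgf2 the NPC MBD3 list is the shortest. That list is also left uncut by equal list sizes, which therefore could not remove the Fgf2 call.

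**Figure D2:**
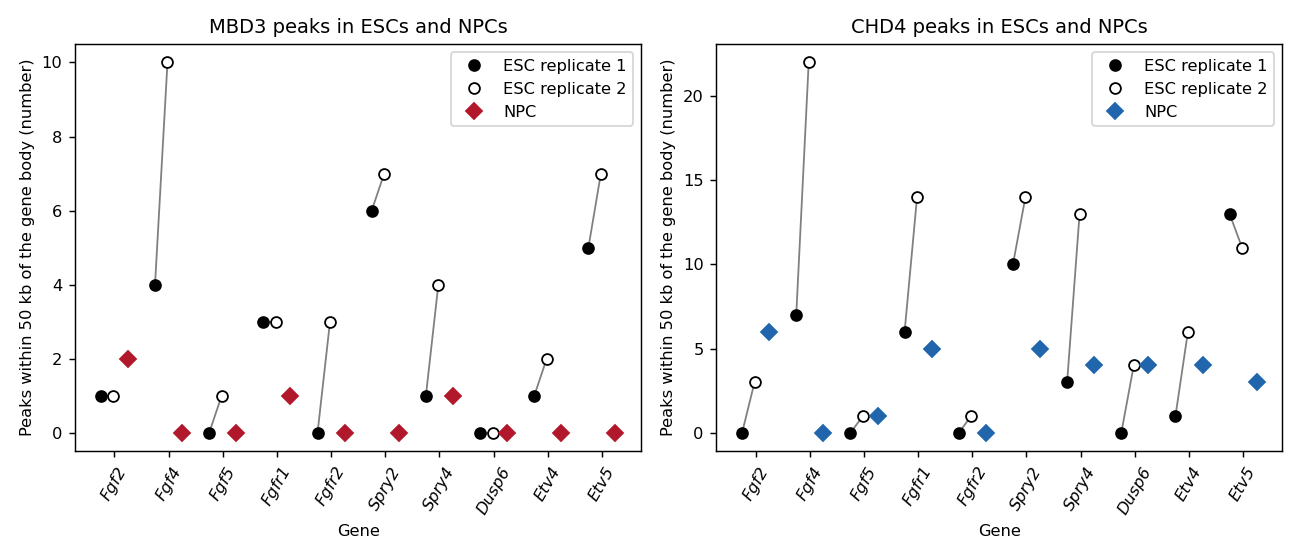
Peaks within 50 kb of each gene for MBD3 (left) and CHD4 (right). Filled and open circles are the 2 ESC replicates, joined by a line, and diamonds are the single NPC list. The NPC diamond lies below both circles for 5 genes in the MBD3 panel and 4 in the CHD4 panel, and above both for Fgf2 in each.

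Merging overlapping peaks of all lists gave 143 regions in the 10 windows. Of these, 92 held MBD3 or CHD4 in ESCs and neither in NPCs (64.3%, against 49.9% of the 62111 regions of all chromosomes), 20 held them in NPCs with no ESC peak of any factor (14%, against 26.2%), and 8 held NuRD subunits in both cell types (5.59%, against 5.37%). A further 4 regions held a NuRD subunit in NPCs beside SIN3A or ZFP296 in ESCs (2.8%, against 1.26%), and 19 held SIN3A or ZFP296 alone (13.3%, against 17.3%). Of the 92 regions, 43 had CHD4 of ESC replicate 2, the list named for the Zfp219 BAC, as their only NuRD peak. Without that list there were 105 regions, of which 49 held NuRD in ESCs alone (46.7%, against 30% of all regions), 23 in NPCs alone (21.9%, against 35.7%) and 4 in both cell types (3.81%, against 3.34%). An ESC CHD4 peak was overlapped by 8 of the 32 NPC CHD4 peaks (25%, against 15.6% of all NPC CHD4 peaks), and by 3 of the 32 without the list named for the Zfp219 BAC (9.38%, against 6.33%). For MBD3, 1 of the 4 NPC MBD3 peaks overlapped an ESC MBD3 peak (25%, against 10.1% of all). All 4 NPC MBD3 peaks overlapped an NPC CHD4 peak, against 84.9% of all NPC MBD3 peaks. Of the 18 ESC MBD3 sites near the members, all 18 overlapped a CHD4 peak of at least 1 ESC list, against 98.3% of all ESC MBD3 sites, and 13 overlapped one of ESC replicate 1 (72.2%, against 85.9%). A SIN3A peak was overlapped by 12 of the 18 (66.7%, against 55.8%) and a ZFP296 peak by 7 (38.9%, against 42%). Of the 29 ESC CHD4 sites, 15 overlapped an ESC MBD3 site, that is 51.7%, against 15.7% of all ESC CHD4 sites. Of the 40 peaks of ESC CHD4 replicate 1 taken alone, 15 did so (37.5%, against 11.3% of that list).

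Peaks were then counted at the members' own starts, from 1 kb upstream to 5 kb downstream of a transcription start site (TSS). An ESC MBD3 peak lay there for 5 members in replicate 1 and 7 in replicate 2, against 2.8% and 4.84% of all coding genes. In NPCs no member had an MBD3 peak at its start, against 2.8% of coding genes. CHD4 was called at the start of 4 and 9 members in the ESC lists, against 10.3% and 26.4%, and of 4 in NPCs (Fgfr1, Spry2, Dusp6 and Etv5), against 15.4%. SIN3A lay at the start of 7 and 8 members, against 42.2% and 34.7%, and ZFP296 at that of Spry4 alone, against 3.65%.

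To show what lay under these peaks, 6 short strings were searched on both strands over the whole of each peak: TGACTCA or TGAGTCA, bound by the AP-1 factors FOS and JUN; CCATTGT, bound by SOX2; ATGCNAAT, the octamer bound by POU factors such as POU5F1; CCGGAAG, bound by ETS factors such as ETV4 and ETV5; TGAATGAA, bound by the repressor Capicua, which ERK signalling inactivates; and TTCCNGGAA, bound by STAT factors. A match is a string of letters and not a measured site. The AP-1 string lay in 12 of the 32 NPC CHD4 peaks near the members (37.5%, against 44.6% of that list) and in 2 of the 4 NPC MBD3 peaks (50%, against 49.5%). In the ESC lists it lay in none of the 21 and 38 MBD3 peaks near the members, against 5.64% and 4.48% of those lists, and in 2 of 40 and 5 of 89 CHD4 peaks, against 6.03% and 5.36%. The SOX2 string lay in 1 of 21 and 3 of 38 ESC MBD3 peaks (8.28% and 6.74% of the lists) and in 3 of 40 and 7 of 89 ESC CHD4 peaks (5.22% and 3.98%). The octamer lay in 3 of 21 and 2 of 38 ESC MBD3 peaks (10.4% and 9.59%) and in 4 of 40 and 8 of 89 ESC CHD4 peaks (5.91% and 4.8%). Neither string was found under an NPC peak of the members, where the whole lists held the SOX2 string in 4.56% of MBD3 and 4.35% of CHD4 peaks and the octamer in 1.43% and 2.18%. The ETS string lay in 3 of 21 and 3 of 38 ESC MBD3 peaks (14.3% and 7.89%, against 3.8% and 3.84% of the lists), in 2 of 40 and 7 of 89 ESC CHD4 peaks (5% and 7.87%, against 3.83% and 5.3%), in 1 of 4 NPC MBD3 peaks (against 2.82%) and in 3 of 32 NPC CHD4 peaks (9.38%, against 3.19%). The Capicua string lay in 1 of 21 and 1 of 38 ESC MBD3 peaks (lists 1.54% and 1.43%), in 1 of 40 and 1 of 89 ESC CHD4 peaks (1.41% and 1.13%), in none of the 4 NPC MBD3 peaks (1.74%) and in 2 of 32 NPC CHD4 peaks (6.25%, against 1.62%). The STAT string lay in none of the members' peaks in the 6 MBD3 and CHD4 lists, which held it in 0.911% to 2.01% of their peaks. Lists whose peaks overlap share the same letters, so that matches in different lists are not separate sites. RefSeq promoter sequences (GRCm38.p6, 250 bases before to 50 after a start) matched Fgf2, Fgf4, Fgf5, Fgfr2, Spry2, Dusp6 and Etv5. None of these promoters held any of the 6 strings, which lay in between 1.15% (STAT) and 8.86% (ETS) of 32851 promoters.

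**Figure D3:**
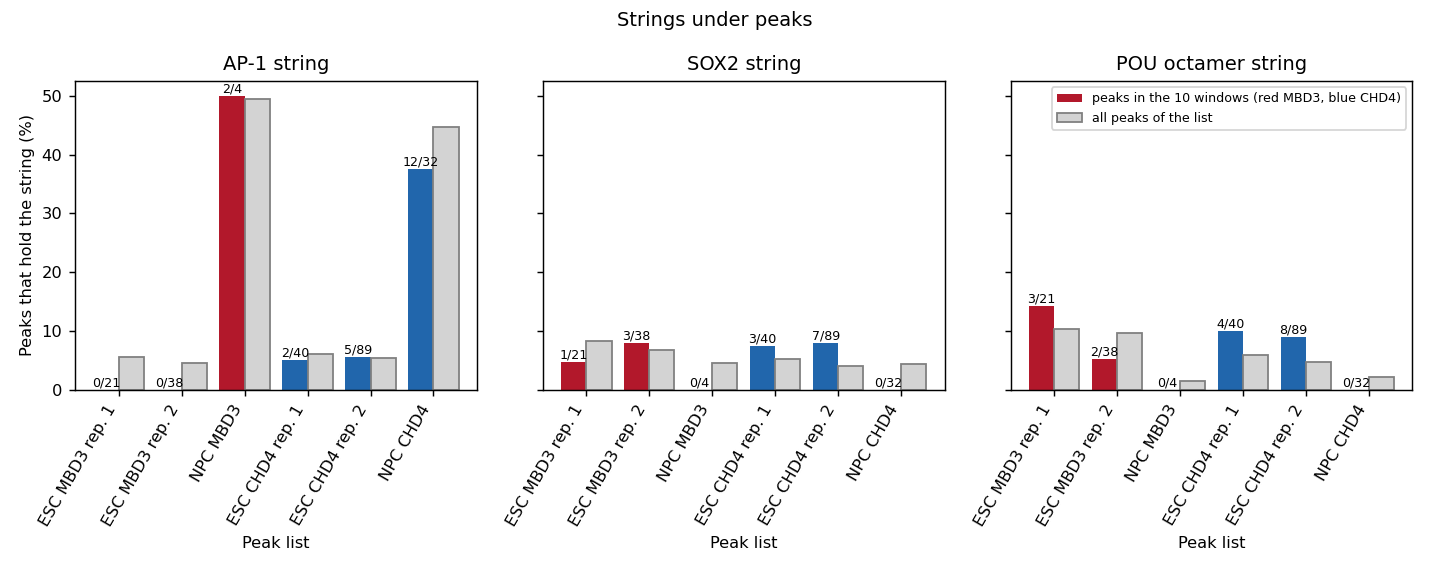
Share of peaks (%) that hold the AP-1, SOX2 or POU octamer string, for peaks in the windows of the 10 genes (coloured bars, with the number of peaks above) and for all peaks of the same list (grey bars). The AP-1 string lies under 44.6% and 49.5% of all NPC CHD4 and MBD3 peaks and under 4.48% to 6.03% of the ESC MBD3 and CHD4 lists.

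Fgf4, the FGF ligand of pluripotent cells, had NuRD peaks within 50 kb in ESCs alone. Its window held 4 and 10 MBD3 peaks in the ESC lists and 0 in NPCs, and 7 and 22 CHD4 peaks in the ESC lists and 0 in NPCs. As many MBD3 peaks were reached by 0.756% of all coding genes in ESC replicate 1 and 0.139% in replicate 2. As many CHD4 peaks were reached by 4.64% in replicate 1 and by 0.715% in replicate 2, the list named for the Zfp219 BAC. SIN3A was called at 10 and 5 places and ZFP296 at 3. The gene lies on chromosome 7 at 152047291 to 152051148 on the plus strand, and its window also holds Fgf3, Fgf15 and Oraov1. In ESCs MBD3 and CHD4 were called in all 4 lists in 2 of its regions. The first, 152043652 to 152044990, lay 2.97 kb upstream of the start, with deposited values of 8.31 and 10.8 for MBD3, up to 13.2 and 18.8 for CHD4, and 14.2 and 5.86 for SIN3A. The second, 152050472 to 152050726, lay 3.31 kb downstream of the start in the 3′ UTR of Fgf4, with values of 6.33 and 7.24 for MBD3 and 7.64 and 8.52 for CHD4. A ZFP296 peak of value 15 lay 9.77 kb upstream, beside MBD3 at 9.16 and CHD4 at 11.4 in ESC replicate 2. At 39.3 kb upstream, nearest to the start of Fgf3, MBD3 was called at 7.36 and 5.67, SIN3A at 17.3 and ZFP296 at 13. The peaks thus lay on both sides of the gene, and within the window NPC peaks were missing on both. The window of Fgf15, which reaches further downstream, held 1 MBD3 and 4 CHD4 peaks in NPCs. The SOX2 string lay in an ESC CHD4 replicate 1 peak of value 10.3, in the region 2.97 kb upstream of the Fgf4 start. Of the 7 peaks of that list near Fgf4, 1 held it. The other NuRD and SIN3A peaks of that region did not. The string is shown in capitals in the 160 bases around it, on the plus strand of mm9.
Fgf4 upstream, chr7:152044377-152044536: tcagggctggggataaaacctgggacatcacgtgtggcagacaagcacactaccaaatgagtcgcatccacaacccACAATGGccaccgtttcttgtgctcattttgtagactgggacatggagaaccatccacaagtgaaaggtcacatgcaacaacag

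Fgf2, the ligand supplied to NPCs in their medium, was the only member with more peaks of both factors in NPCs. MBD3 peaks numbered 1 and 1 in ESCs and 2 in NPCs, and CHD4 peaks 0 and 3 in ESCs and 6 in NPCs, a number that 7.77% of coding genes reached. The Fgf2 window spans 193 kb, against a median of 115 kb over all coding genes. Most of its NPC CHD4 peaks lay nearest to the starts of Cetn4 and Nudt6, and an NPC MBD3 peak to that of Bbs12. With peaks nearest to the Fgf2 start only, the NPC count minus the ESC mean fell from 4.5 to 1.5 for CHD4 and stayed at 1 for MBD3. Chromosome 3 as a whole held 9.94% of NPC MBD3 and 8.49% of NPC CHD4 peaks on autosomes, against 4.43% and 4.86% of the ESC MBD3 and 3.94% and 4.11% of the ESC CHD4 peaks, and 4.94% of coding genes. The part of this excess in the Fgf2 counts was not tested. The Fgf2 record runs from 37211441 to 37304299 on the plus strand. Besides a further start inside the gene, its coding transcripts have their first start at 37247268. The ESC MBD3 peaks lay 35.6 kb upstream of that start, in a region from 37211415 to 37211873 over the starts of Cetn4 and Bbs12. There MBD3 was called at 5.67 and 28.2 in ESCs and 11.3 in NPCs, and CHD4 at 19.9 in ESC replicate 2 and 10.7 in NPCs. It was the only ESC MBD3 site near any member that overlapped an NPC MBD3 peak, and in ESC replicate 2 it ranked 59 among 7551 MBD3 peaks. In an intron of Fgf2, 12.4 kb downstream of the first coding start, a region from 37259710 to 37260247 was called in NPCs alone, with MBD3 at 9.8 and CHD4 at 16.5. It carries the AP-1 string, in capitals in the 200 bases printed here from the plus strand of mm9, and 3 of the 6 NPC CHD4 peaks of Fgf2 held that string.
Fgf2 intron, chr3:37259905-37260104: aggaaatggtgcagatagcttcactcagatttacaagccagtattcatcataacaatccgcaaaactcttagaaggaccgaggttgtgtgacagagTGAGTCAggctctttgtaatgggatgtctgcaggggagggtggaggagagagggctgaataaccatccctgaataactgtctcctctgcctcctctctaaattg

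Fgf5, a ligand switched on when ESCs leave the naive state, had few peaks around its body on chromosome 5, from 98683203 to 98706049. MBD3 was called 0 and 1 times in ESCs and 0 times in NPCs, and CHD4 0 and 1 times in ESCs and 1 time in NPCs. The ESC peaks, of values 8.55 for MBD3 and 7.66 for CHD4, lay in replicate 2 in one region 1.71 kb downstream of the start, where SIN3A with spike-in was called at 5.86. The NPC CHD4 peak, of value 10.6, lay 39.3 kb upstream, nearer to the start of Prdm8, and held the AP-1 string shown in capitals in 120 bases of the plus strand of mm9. ESC and NPC peaks of Fgf5 did not overlap, and neither NPC count lay outside both ESC counts.
Fgf5 upstream, chr5:98643761-98643880: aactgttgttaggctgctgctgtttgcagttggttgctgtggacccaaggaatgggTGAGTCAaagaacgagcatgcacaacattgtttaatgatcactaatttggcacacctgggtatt

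**Figure D4:**
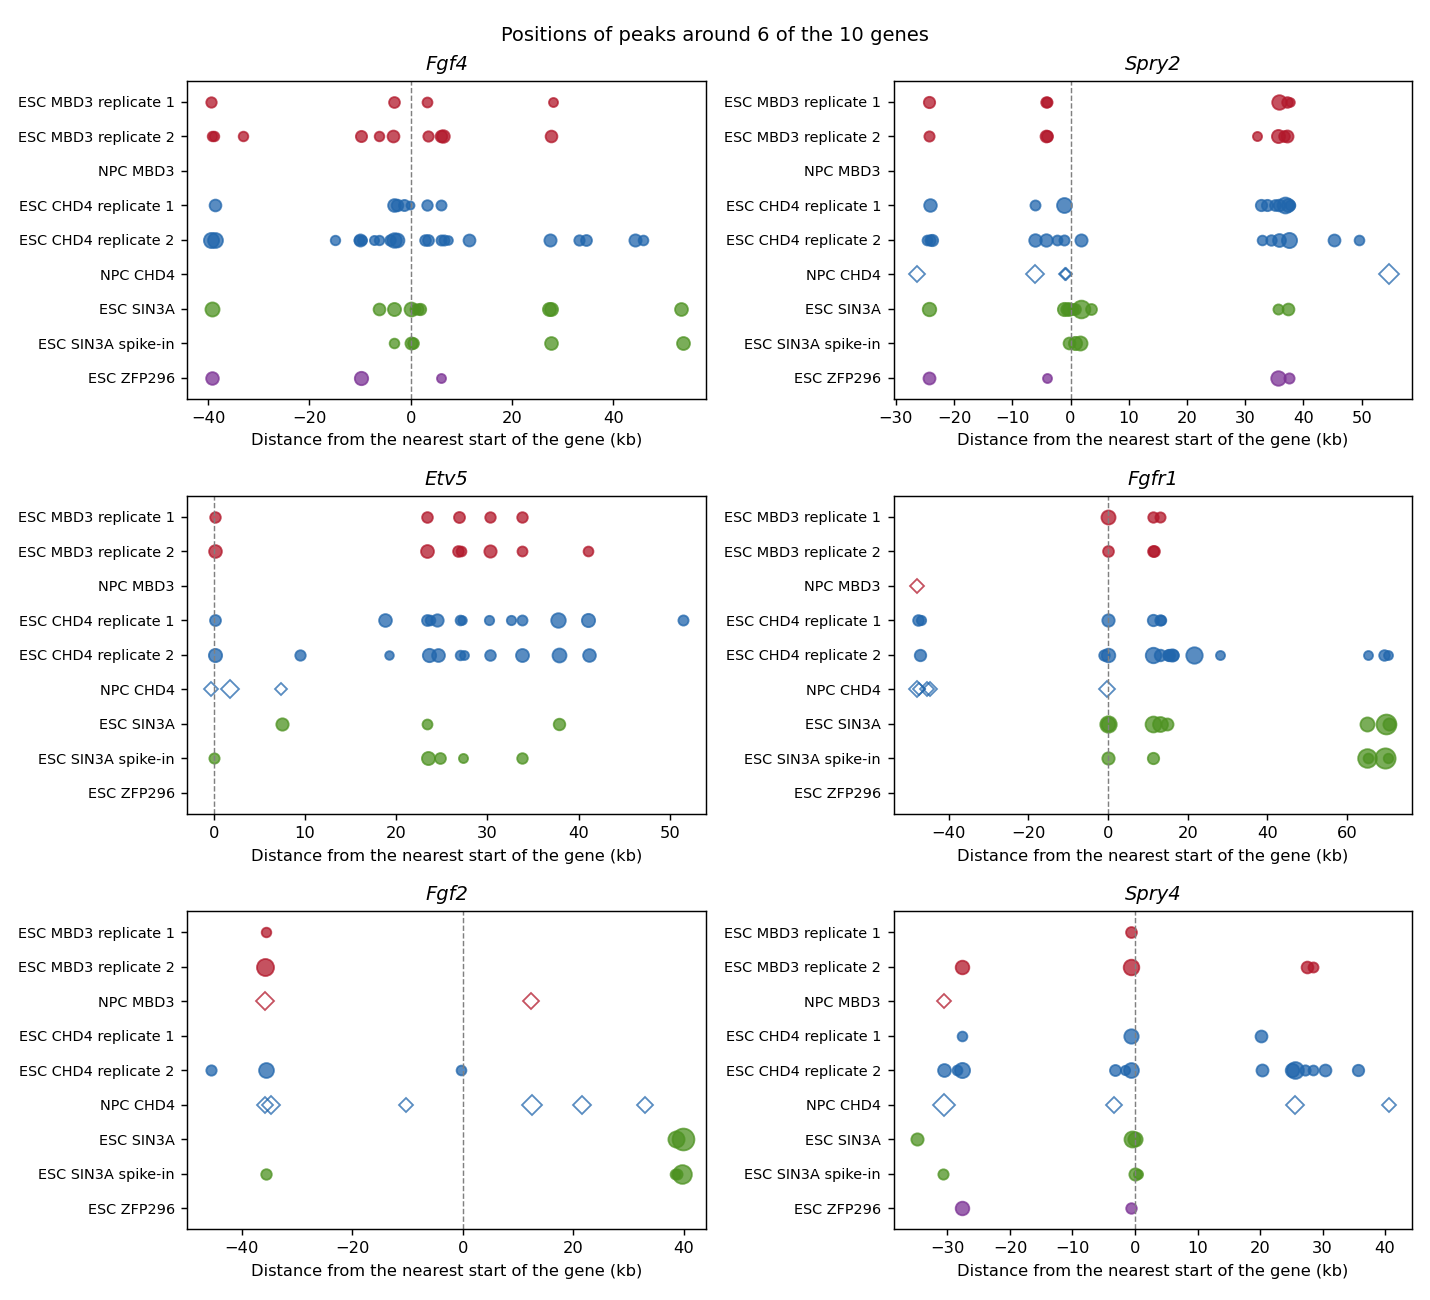
Positions of peaks around 6 of the 10 genes, as distance from the nearest coding start of the gene in kb (horizontal), with 1 row per list. Filled circles are ESC peaks and open diamonds NPC peaks, larger symbols have larger deposited values, and the dashed line is the start. The Fgf4 panel has no diamond, and the ESC peaks of Etv5 run from its start through the gene body, up to more than 40 kb downstream.

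Fgfr1, the main FGF receptor of ESCs, had 3 and 3 MBD3 peaks in the ESC lists and 1 in NPCs, and 6 and 14 CHD4 peaks in the ESC lists and 5 in NPCs. The gene runs from 26624126 to 26686186 on the plus strand of chromosome 8, and Letm2 and Whsc1l1 lie in its window. In ESCs all 4 NuRD lists were called at the start of the gene, in a region from 26623843 to 26624145, with MBD3 at 17.2 and 8.3, CHD4 at 12.1 and 15.8 and SIN3A at 25.9. They were called again in an intron 11.3 kb downstream of the nearest start, with MBD3 at 7.46 and 8.33, CHD4 at 9.7 and 22.2 and SIN3A at 23.7 and 9.55. The start region held the octamer in each of the 4 NuRD peaks. In NPCs 4 of the 5 CHD4 peaks and the MBD3 peak lay between 44.6 and 47.9 kb upstream, and the fifth CHD4 peak, of value 9.56, lay at an internal start of the gene. At 47.9 kb upstream MBD3 was called at 6.44 and CHD4 at 10.7 in NPCs, and an ESC CHD4 replicate 1 peak of value 8.02 overlapped that region. Of the 5 NPC CHD4 peaks, 4 held the AP-1 string, and the MBD3 peak held it at 2 positions, in capitals below (whole peak, plus strand, mm9). ESC MBD3 replicate 1 placed 9.38% of its autosomal peaks on chromosome 8, against 4.17% in replicate 2 and 5.05% of coding genes, and the 2 ESC CHD4 lists placed 8.17% and 7.74% there. The part of this in the Fgfr1 counts was not tested, and the call of fewer MBD3 peaks was lost with lists of equal size and with counts per 10000 peaks.
Fgfr1 upstream, chr8:26576129-26576301: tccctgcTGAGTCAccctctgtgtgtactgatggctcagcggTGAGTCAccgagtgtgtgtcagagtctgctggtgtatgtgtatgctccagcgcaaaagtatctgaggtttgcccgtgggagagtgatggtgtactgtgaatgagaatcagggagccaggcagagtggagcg

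Fgfr2, the receptor that prevails in epithelia and in extraembryonic cells of the early embryo, had 0 and 3 MBD3 peaks in ESCs and 0 in NPCs, and 0 and 1 CHD4 peaks in ESCs and 0 in NPCs. The transcripts used span 137306026 to 137410322 on the minus strand of chromosome 7. All 4 ESC NuRD peaks came from replicate 2, so no site was shared between the ESC lists. MBD3 was called in an intron at 12.8, 8.39 kb downstream of the start, and at 8.55 in a region 9.51 kb downstream that also held a ZFP296 peak of value 8.14. At 1.35 kb downstream of the start MBD3 was called at 8.55 and CHD4 at 9.33, and SIN3A lay over the start itself at 13.2 and 6.82. A ZFP296 peak of value 6.21, 8.03 kb downstream, was the only peak near Fgfr2 with the STAT string. These counts use the Fgfr2 transcripts other than 1 that extends the gene record to 3.01 Mb. With the whole record, the difference between the NPC count and the mean of the ESC counts was -7.5 peaks for MBD3 and 4 for CHD4, and neither NPC count lay outside both ESC counts.

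Spry2, an inhibitor of receptor tyrosine kinase signalling, had 6 and 7 MBD3 peaks in the ESC lists and 0 in NPCs, and 10 and 14 CHD4 peaks in the ESC lists and 5 in NPCs. As many MBD3 peaks were reached by 0.107% of all coding genes in ESC replicate 1 and 0.68% in replicate 2, and its 4 ZFP296 peaks by 1.17%. The gene lies at 106291166 to 106296036 on the minus strand of chromosome 14, with no other coding gene in its window. The ESC MBD3 peaks formed 3 groups. Downstream, at 106259863 to 106260601, 35.8 kb from the start, MBD3 was called at 18.9 and 14.3, CHD4 at 10.2 and 13.7, ZFP296 at 18.8 and SIN3A without spike-in at 6.74. The MBD3 peak ranked 94 of 2344 in replicate 1 and 895 of 7551 in replicate 2. An adjoining region 37.3 kb downstream held CHD4 at up to 23.8 and 21, and MBD3, SIN3A and ZFP296 as well. At 4.18 kb upstream MBD3 was called at up to 7.64 and 10.9 and ZFP296 at 4.64, and at 24.2 kb upstream MBD3 at 9.45 and 6.97, CHD4 at 12.9 and 7.45 and ZFP296 at 11.2. Over the gene itself SIN3A prevailed, with a value of 31.4 at 1.75 kb downstream of the start, and no MBD3 peak lay in the start window in any list. Chromosome 14 held 1.56% of NPC MBD3 and 2.23% of NPC CHD4 autosomal peaks, against 2.99% to 3.85% in the 4 ESC NuRD lists and 4.45% of coding genes. Its part in the Spry2 counts was not tested.

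Of the 5 NPC CHD4 peaks of Spry2, 2 overlapped an ESC CHD4 peak of each replicate. One, at 106302036 to 106302315, 6.14 kb upstream of the start, had values of 6.66 and 12.7 in ESCs and 11.5 in NPCs and was the only NPC peak of Spry2 with the AP-1 string. For Spry2 the plus strand of mm9 is shown at 3 places. The first has the octamer in a downstream ESC MBD3 replicate 1 peak of value 4.02, which ranked 2288 of 2344. The ESC CHD4 replicate 2 and ZFP296 peaks of the region 37.3 kb downstream held that octamer too, whereas its MBD3 replicate 2 and CHD4 replicate 1 peaks did not. The others have the ETS and Capicua strings in the MBD3 replicate 2 peak upstream of the start, and the AP-1 string in the CHD4 peak of both cell types. Capitals mark the strings.
Spry2 downstream, ESCs, chr14:106258371-106258530: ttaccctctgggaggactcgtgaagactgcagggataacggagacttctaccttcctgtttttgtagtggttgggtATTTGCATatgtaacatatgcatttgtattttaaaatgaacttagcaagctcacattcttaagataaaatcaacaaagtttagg
Spry2 upstream, ESCs, chr14:106300177-106300345: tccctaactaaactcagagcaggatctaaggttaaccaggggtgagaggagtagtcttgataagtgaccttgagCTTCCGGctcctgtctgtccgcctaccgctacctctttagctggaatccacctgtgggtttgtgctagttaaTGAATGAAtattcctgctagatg
Spry2 upstream, both cell types, chr14:106302132-106302251: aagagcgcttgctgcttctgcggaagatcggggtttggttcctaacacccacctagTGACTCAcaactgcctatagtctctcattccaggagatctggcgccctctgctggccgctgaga

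Spry4, a second Sprouty protein, had peaks in both cell types. MBD3 peaks numbered 1 and 4 in ESCs and 1 in NPCs, and CHD4 peaks 3 and 13 in ESCs and 4 in NPCs, so neither NPC count lay outside the ESC counts. Of its 4 NPC CHD4 peaks, 3 overlapped an ESC CHD4 peak, all of replicate 2, the list named for the Zfp219 BAC, and 0 overlapped one of replicate 1. Its NPC MBD3 peak overlapped no ESC MBD3 peak. In ESCs the strongest MBD3 region lay at 38761179 to 38762095 on chromosome 18, 0.715 kb from the start of Spry4 and nearer to that of 9630014M24Rik, with MBD3 at 8.3 and 22.6, CHD4 at 18.3 and 19.9, SIN3A at 24.2 and ZFP296 at 7.71. The NPC lists had no peak there. The NPC MBD3 peak, of value 5.52, lay 30.6 kb upstream, with NPC CHD4 at 22.5 and ESC CHD4 replicate 2 at 13.5. A region 27.7 kb upstream held ZFP296 at 15.8 beside MBD3 at 15.8 in ESC replicate 2 and CHD4 at 5.98 and 20.9. NPC CHD4 peaks of Spry4 thus lay at 4 places, none of them in its start window.

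Dusp6, the phosphatase that removes the activating phosphates from ERK in the cytoplasm, had no MBD3 peak within 50 kb in any of the 3 MBD3 lists. CHD4 was called 0 and 4 times in ESCs and 4 times in NPCs, and the NPC and ESC CHD4 peaks did not overlap. SIN3A was called 2 times without and 0 times with spike-in. An NPC CHD4 peak of value 7.88, at 98725654 to 98725830 on chromosome 10, ended just upstream of the start and overlapped the edge of an ESC SIN3A peak of 11.3, from 98725820 to 98726036, which covered the start. Another NPC CHD4 peak, of 7.87, lay 1.3 kb upstream and overlapped an ESC SIN3A peak of 7.33. The strongest NPC peak, at 10.8, lay 5.63 kb from the start, beyond the 3′ end. None of the 4 NPC peaks held any of the 6 strings, whereas 2 of the 4 ESC CHD4 peaks held the octamer. The ESC CHD4 count rests on replicate 2 alone.

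Etv4, an ETS factor induced by FGF signalling, had 1 and 2 MBD3 peaks in ESCs and 0 in NPCs, and 1 and 6 CHD4 peaks in ESCs and 4 in NPCs. In ESCs the 5′ part of the gene was occupied at 101645600 to 101646350 on chromosome 11, with MBD3 at 10.2 and 6.58, CHD4 at up to 10 in replicate 2 and SIN3A at 11.6 and 9.95. No NPC peak lay there. The 4 NPC CHD4 peaks lay 5.6 and 22.1 kb upstream and 16.4 and 65.1 kb downstream of the start, with values between 6.2 and 10.8, and the last of them was nearest to Dhx8 and overlapped an ESC CHD4 replicate 2 peak. The call of fewer MBD3 peaks was lost with a window of 100 kb and with lists of equal size.

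Etv5, the closest relative of Etv4 in the list, had 5 and 7 MBD3 peaks in ESCs and 0 in NPCs, and 13 and 11 CHD4 peaks in ESCs and 3 in NPCs. As many MBD3 peaks were reached by 0.295% of all coding genes in ESC replicate 1 and 0.68% in replicate 2, and as many CHD4 peaks by 0.881% and 7.03%. No ZFP296 peak lay in its window, whereas Fgf4 and Spry2 had 3 and 4. The gene lies at 22381382 to 22439792 on the minus strand of chromosome 16, and the ESC peaks followed its body. All 4 ESC NuRD lists were called in introns at 23.5, 27.1, 30.2 and 33.8 kb from the nearest start and again at a second, internal start, in a region from 22436294 to 22436620. MBD3 values there were 7.71 and 13.2, and CHD4 values 8.5 and 14.6. At 23.5 kb, where MBD3 was called at 8.03 and 13.6, SIN3A was called too, at 6.37 and 14.2. Further into the gene, at 37.8 kb, CHD4 reached 18.9 and 16.9 without MBD3. In NPCs CHD4 was called at 12.7 in a region 1.83 kb from the nearest start, at 4.08 in an intron and at 6.34 just upstream of the first exon, and none of these overlapped an ESC NuRD peak.

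For these ETS factors the plus strand of mm9 is printed at 3 places, each picked with a string in it: an intronic Etv5 peak of ESC MBD3 replicate 1 with the SOX2 string, the NPC CHD4 peak upstream of Etv5 with the AP-1 string, and the NPC CHD4 peak beyond the 3′ end of Etv4 with the AP-1 and ETS strings. Most of their peaks held neither string. The SOX2 string lay in 1 of 5 and 1 of 7 ESC MBD3 peaks of Etv5. The AP-1 string lay in 1 of 3 NPC CHD4 peaks of Etv5 and 1 of 4 of Etv4. Capitals mark the strings.
Etv5 intron, ESCs, chr16:22406217-22406411: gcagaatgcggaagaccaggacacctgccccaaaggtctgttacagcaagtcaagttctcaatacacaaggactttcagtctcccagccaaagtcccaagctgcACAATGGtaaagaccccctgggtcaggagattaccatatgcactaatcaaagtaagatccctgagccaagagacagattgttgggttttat
Etv5 upstream, NPCs, chr16:22440021-22440164: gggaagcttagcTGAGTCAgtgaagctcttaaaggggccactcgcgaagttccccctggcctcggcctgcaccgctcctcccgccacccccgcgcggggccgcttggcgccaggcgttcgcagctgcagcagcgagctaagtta
Etv4 downstream, NPCs, chr11:101630110-101630289: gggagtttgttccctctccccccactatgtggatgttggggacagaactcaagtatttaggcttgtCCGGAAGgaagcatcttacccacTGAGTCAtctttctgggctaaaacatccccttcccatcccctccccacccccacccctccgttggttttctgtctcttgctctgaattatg

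The NPC CHD4 counts of the members lay between 0 and 6, with a median of 4, and the median over all coding genes was 1. In ESC CHD4 replicate 2 the members ranged from 1 to 22, with a median of 8.5 against 2. The genes whose counts over the 9 lists were most like those of a member, outside its own window, were found by the Euclidean distance of log2(count + 1). Fgf4 was nearest to Llgl2, at a distance of 1.13, with 2 and 6 ESC MBD3 peaks, 5 and 18 ESC CHD4 peaks and none in NPCs. Spry2 was nearest to Cdsn, at 0.86, Fgfr1 to Rab12, at 0.49, and Fgf2 to Bend6, at 0.98. Etv5 had no close match, its nearest gene being Fam60a at 1.36, and Spred2, another inhibitor of the pathway, was among its next nearest, at 1.61.

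**Figure D5:**
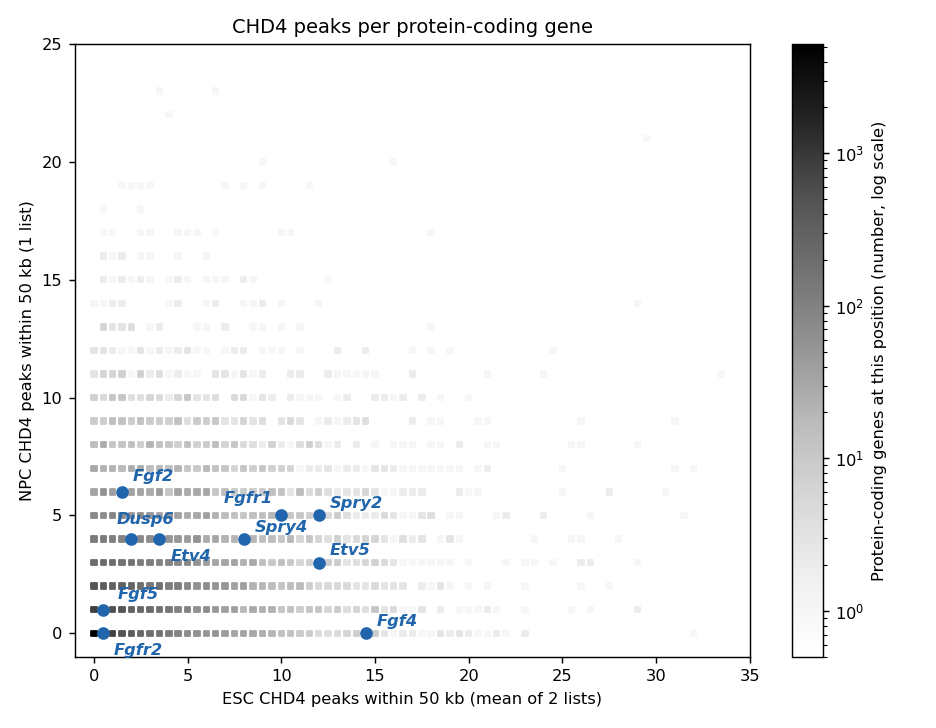
CHD4 peaks within 50 kb of each protein-coding gene, as the mean of the 2 ESC lists (horizontal) against the NPC list (vertical), with grey squares shaded by the number of genes on a log scale and the 10 members in blue. 6 genes lie beyond the axes. Fgf4 lies at 0 in NPCs, and Fgf2 is the member with the most NPC peaks.

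The same counts were made for 72 other genes of the pathway, 70 of which were in the annotation, and Fgf3 and Fgf15 share peaks with Fgf4 because they lie in its window. An MBD3 site of both ESC lists lay near 15 of the 70 genes (21.4%, against 10.1% of all coding genes), an NPC MBD3 peak near 25 (35.7%, against 15.7%) and a ZFP296 peak near 25 (35.7%, against 21.9%). Fewer MBD3 peaks in NPCs were counted for 18 (25.7%, against 10.3%) and more for 11 (15.7%, against 7.94%). For CHD4, 20 had fewer (28.6%, against 20.6%) and 15 more (21.4%, against 19.9%). Differences between the classes of these genes were not tested, and their counts are given as a description. Of 15 ligands, 5 had fewer MBD3 peaks in NPCs and 1 had more, and for CHD4 6 had fewer and 4 more. Fgf3 and Fgf15 were among those with fewer peaks of both factors. Fgf17 also had fewer MBD3 peaks, with 3 and 5 in ESCs and 0 in NPCs. Of 21 adaptors and kinases, 5 had fewer and 1 had more, and for CHD4 8 had fewer and 2 more. Of 14 inhibitors, 4 had more MBD3 peaks in NPCs and 1 had fewer: Spry1 had 1 and 0 in ESCs and 3 in NPCs, and Dusp4 had 0 and 0 in ESCs and 2 in NPCs. Spred2, with 3 and 4 in ESCs and 0 in NPCs, was the inhibitor with fewer. For CHD4, 2 inhibitors had fewer and 4 more. Of 15 transcription factors and targets, 7 had fewer MBD3 peaks in NPCs and 4 had more. Among the 7, Erf and Cic, both on chromosome 7, had the same MBD3 counts, 4 and 5 in ESCs and 1 in NPCs. Whether they share peaks was not checked. Myc and Fos also had fewer, with 1 and 3 ESC peaks each and 0 in NPCs, and Fosl1, an AP-1 subunit, had 0 and 0 in ESCs and 2 in NPCs. For CHD4, 2 of these factors and targets had fewer and 4 more. The 5 receptors and co-receptors had no ESC MBD3 site in both lists, 1 had more MBD3 peaks in NPCs, and for CHD4 2 had fewer and 1 more.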

How the data were processed

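The study mapped protein binding by ChIP-seq in mouse ESCs and NPCs, and 9 of 36 samples, those with a peak list, were used. The authors aligned reads to mm9 with BWA, kept unique reads, removed duplicates and called peaks per sample with MACS 2.0 against input of the same cell line. The deposited lists give 1 value per peak, the −log10 of a p or q value (which of them is not given in the sources used here). Per the peak names, reads of the 7 MBD3, CHD4 and ZFP296 lists were set to 17000000, which SIN3A peak names do not mention. Thresholds in the peak names are 0.001, or 0.0001 for SIN3A without spike-in. Longer lists give more peaks per gene. Reads per peak are not in these files, so counts of peaks have no interval.

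The 10 members and the other lists of genes and strings were chosen with earlier results of these data known. Peaks were counted by midpoint within 50 kb of gene bodies (GENCODE vM1, Python 3.11.15, numpy 2.4.6). Members were all named. The peaks named were mostly taken from those with the highest value of a gene and list, at a member's start, with several factors or with NuRD in both cell types, and not all of these are printed; others were chosen after their values were seen. Fgfr2 was taken without 1 transcript. Counting was tested on simulated peaks. Alternatives were windows of 20 and 100 kb, peaks nearest to the member's start, any overlap, a value of 5 or more, equal list sizes, counts per 10000 peaks, ESC sites by midpoints within 500 bp, each replicate left out and, added after seeing the data, the whole Fgfr2 record and regions without ESC CHD4 replicate 2. Sequences were read from mm9 (pyfaidx 0.9.0.4), and all those printed hold at least 1 of the strings. Of 104813 peaks, 95 lay on sequences absent from that reference and were left out of the string search. Knockout samples were not analysed here.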

Additional observations from a re-analysis of the deposited data

How the results depend on the processing

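No call of more or fewer peaks turned to the opposite direction in any of the alternatives. Leaving out a replicate could not have turned one, because a count outside both ESC counts lies outside each of them. Counts per 10000 peaks could not have turned a call with an NPC count of 0, because 0 stays 0. Of the 10 members, the number with an NPC MBD3 peak was 1 with a window of 20 kb and 5 with 100 kb, and the number with more CHD4 peaks in NPCs was 2 with either window, 2 with deposited values of 5 or more, 3 with counts per 10000 peaks and 0 with lists of equal size. With lists of equal size (2304 peaks), 3 members had a CHD4 site in both ESC lists, 2 a CHD4 peak in NPCs, 3 a SIN3A site in both lists and 3 fewer MBD3 peaks in NPCs. With a replicate left out, the members with a CHD4 site in ESCs numbered 6 to 10, those with fewer MBD3 peaks in NPCs 5 to 8, those with fewer CHD4 peaks 4 to 7 and those with more CHD4 peaks 1 to 5. Leaving out a replicate can only keep or raise the numbers with more or fewer peaks. Shares of all coding genes were not computed for these alternatives, except for an ESC CHD4 peak with a replicate left out, given above. The changes in these numbers therefore stand without those of other genes. The calls of Fgf2 and Etv5 for CHD4 were lost with equal list sizes, that of Fgfr1 for CHD4 with 100 kb and that of Spry2 for CHD4 with 20 kb. The whole Fgfr2 record, chosen after seeing the data, could alter only the calls of Fgfr2 and changed none of them. Equal list sizes use fewer peaks by construction, and for the other settings the cause was not tested. No paired analysis was possible because NPCs have a single list per factor and no test was made. The reads behind each peak are not in the peak lists, and the single NPC list per factor gives no measure of spread between NPC replicates.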
